A study of Mus musculus with 8 samples.

Results

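The KSL comparison of this study set 2 arrays of KSL cells from leukemic mice against 2 arrays of KSL cells from normal mice, 4 of the 8 arrays of the series. KSL cells are bone marrow cells that carry Kit and Sca-1 and lack the markers of mature blood lineages, and they hold the blood stem cells together with the multipotent progenitors that arise from them. The arrays were chosen by their labelled disease state and cell type, and all 18193 genes that the array annotation names by a single symbol were described, of which 1594 lay at the lowest deposited value on all 4 KSL arrays. The other 4 arrays, 2 per disease state, held HSC (blood stem cells) of the same kinds of mice and served here to share the estimate of the spread and to show where the KSL difference was not the HSC difference.

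The leukemic mice were chimeras. CD45.1+ hosts had received CD45.1+ marrow together with as many marrow cells from CD45.2+ donors that carried BCR-ABL and SCL-tTA, and the normal mice were made in the same way but without BCR-ABL. The profiled cells were CD45.1+ and so lay outside the transformed CD45.2+ graft. Since the hosts were CD45.1+ too, the marker did not part the co-transplanted cells from any cells the hosts still had. SCL-tTA drives the tetracycline-regulated BCR-ABL transgene in stem and progenitor cells, and the cells were sorted 4 weeks after tetracycline was withdrawn from the drinking water. The sources used here give neither age nor strain, and they do not say whether the 2 arrays of a group came from separate mice. Every p-value therefore measures only the spread between these arrays, which may be technical in the leukemic groups. The X-linked RNA Xist differed between the 2 normal arrays (3.67 and 11.71 in KSL, 5.79 and 11.94 in HSC), so their spread was not technical alone.

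The normal replicates correlated at r = 0.988 across genes and the leukemic replicates at r = 0.994, and the median SD between replicates was 0.127 and 0.104 on the log2 scale. Of the genes behind the sort, Kit stood at 9.48 and 9.55 in normal and 9.30 and 9.16 in leukemic KSL, and Ptprc, which encodes CD45, at 10.49 and 10.25 against 10.11 and 10.15. No probe set is annotated with the Sca-1 gene alone, so that part of the gate could not be read. Dntt and Mpo, genes of early lymphoid and myeloid progenitors, were both well above the floor on all 4 arrays, Dntt between 8.13 and 11.07 and Mpo between 13.13 and 13.31. Xist, the RNA of the inactive X chromosome, was at 3.67 on normal replicate 1 and between 11.63 and 11.81 on the other KSL arrays, and the Y-linked gene Kdm5d was at 8.50 there against 5.86 on normal replicate 2 and 4.68 and 3.65 in leukemic KSL. One array of the normal group thus had the pattern of male cells. HSC normal replicate 1 had it too, with Xist at 5.79 against 11.80 to 11.99 on the other HSC arrays.

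KSL cells sit at the top of blood formation. Within them, stem cells use transcription factors such as Meis1 and Gata2, and lymphoid-primed progenitors turn on Flt3, Dntt and Rag1. Progenitors committed to the granulocyte, mast cell or erythroid fates arise from KSL cells and turn on granule, protease or globin programmes. BCR-ABL is the tyrosine kinase of chronic myeloid leukemia, a disease in which granulocytes and their precursors expand in the marrow.

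Promoter stretches of genes whose values lead the results are shown here. They were taken from RefSeq on the mouse build GRCm38.p6, from the 250 bases upstream of the annotated start, and each is written 5′ to 3′ on the gene's strand with the motif in capitals. The first set holds the heat shock element GAANNTTC, a palindrome that reads the same on both strands, in the inducible Hsp70 genes, which had the largest differences of all. Hspa1a (chr17:34972213-34972300, minus strand) and Hspa1b (chr17:34959295-34959382, minus strand) match at 247 of 250 upstream positions.
Hspa1a: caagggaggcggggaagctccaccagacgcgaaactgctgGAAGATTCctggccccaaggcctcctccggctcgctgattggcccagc
Hspa1b: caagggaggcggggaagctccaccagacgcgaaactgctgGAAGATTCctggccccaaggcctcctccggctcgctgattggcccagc
These letters occur in 6.69% of the 32851 upstream windows and in those of 7 of the 17 heat shock chaperones with an entry.

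The second set holds the ER stress element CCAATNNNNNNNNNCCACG, searched on both strands, in genes of protein folding in the endoplasmic reticulum that were higher in leukemic KSL. They are Pdia6 (chr12:17266451-17266549, plus strand), Creld2 (chr15:88819480-88819578, plus strand) and Dnajc3 (chr14:118937787-118937885, plus strand).
Pdia6: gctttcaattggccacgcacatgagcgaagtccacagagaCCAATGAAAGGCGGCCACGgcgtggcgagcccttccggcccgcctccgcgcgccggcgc
Creld2: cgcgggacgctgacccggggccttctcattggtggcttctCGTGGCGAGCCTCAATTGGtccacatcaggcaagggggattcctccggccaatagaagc
Dnajc3: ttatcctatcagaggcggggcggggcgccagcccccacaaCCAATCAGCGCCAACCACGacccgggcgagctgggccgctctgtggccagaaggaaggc
The element occurs in 0.113% of all windows and in those of 6 of the 20 ER stress genes with an entry. The other 3 are Hspa5, Hsp90b1 and Syvn1, whose KSL differences (leukemic minus normal, log2) were only 0.16, 0.27 and -0.14.

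The third set holds the cyclic AMP response element TGACGTCA, the same on both strands, in immediate-early genes that were lower in leukemic KSL, Dusp1 (chr17:26508568-26508655, minus strand) and Btg2 (chr1:134079274-134079361, minus strand).
Dusp1: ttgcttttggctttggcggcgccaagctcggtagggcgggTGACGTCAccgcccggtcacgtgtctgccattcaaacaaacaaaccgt
Btg2: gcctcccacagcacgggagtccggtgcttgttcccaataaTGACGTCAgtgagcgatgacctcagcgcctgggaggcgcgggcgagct
It occurs in 1.55% of all windows and in those of 3 of the 21 immediate-early genes with an entry, Maff being the third. The 3 motifs overlap in none of the stretches printed, and a match describes the letters only.

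Few single genes passed the test, among them a tyrosine kinase, an RNA-binding protein, a cytokine subunit and an ER co-chaperone. By limma's moderated test on all 8 arrays with Benjamini-Hochberg adjustment over 18193 genes, 3 genes were higher (0.0165% of the genes tested) and 5 lower (0.0275%) in leukemic KSL at an adjusted p under 0.05. Bmx, a non-receptor tyrosine kinase of the Tec family, was at 4.03 and 4.28 in normal and at 5.91 and 5.96 in leukemic KSL. It rose by 1.78 ± 0.09 on the log2 scale (SE, 2 arrays per group), or 3.44-fold, with a limma adjusted p of 0.0426, and its groups were far apart. Every SE here rests on a spread pooled over the 4 groups of KSL and HSC arrays.

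Cirbp, the cold-inducible RNA-binding protein, was at 9.96 and 9.97 in normal and at 10.98 and 11.03 in leukemic KSL, a rise of 1.04 ± 0.04 (limma adjusted p = 0.0322). R3hcc1 was at 7.51 and 7.44 against 8.17 and 8.20, a rise of 0.71 ± 0.04 (limma adjusted p = 0.0446). For both genes the 2 arrays of a group lay within 0.1 log2 units of each other.

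Among the genes that fell, Il12a, which encodes the p35 subunit of interleukin 12, was at 9.97 and 10.01 in normal and at 8.80 and 8.87 in leukemic KSL. Its fall was -1.16 ± 0.06 (limma adjusted p = 0.0426). Six5, a homeobox transcription factor, went from 7.93 and 7.96 to 6.61 and 6.52, a change of -1.38 ± 0.06 (limma adjusted p = 0.0322). Both genes were separated between the groups by more than 1 log2 unit.

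Mmrn1, which encodes multimerin 1 of platelets and endothelium, was at 6.34 and 6.55 in normal and at 4.85 and 4.90 in leukemic KSL, a change of -1.56 ± 0.08 (limma adjusted p = 0.0426), while its other probe set differed by 0.00. Dnajb9, a co-chaperone of the endoplasmic reticulum, was at 9.36 and 9.32 against 8.57 and 8.65, a change of -0.73 ± 0.04 (limma adjusted p = 0.0453). The last was an immunoglobulin kappa variable segment, outside the kinds of gene that are named here, at 11.20 and 11.31 in normal and 8.69 and 8.47 in leukemic KSL, a change of -2.68 ± 0.11 (limma adjusted p = 0.0322). By limma no gene passed in the 4 KSL arrays fitted alone (3044 at an unadjusted p under 0.05), with a male term (1587), without leukemic KSL replicate 1 (863) or 2 (1036), with a replicate block (1436), or without any 1 HSC array (1799 to 1956), whereas array weights raised the calls to 49 higher and 76 lower. Without normal KSL replicate 1 limma called 0 higher and 6 lower, of which 1 was among the 8, and without normal KSL replicate 2 it called 1 higher and 4 lower, none of them among the 8.

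**Figure D1:**
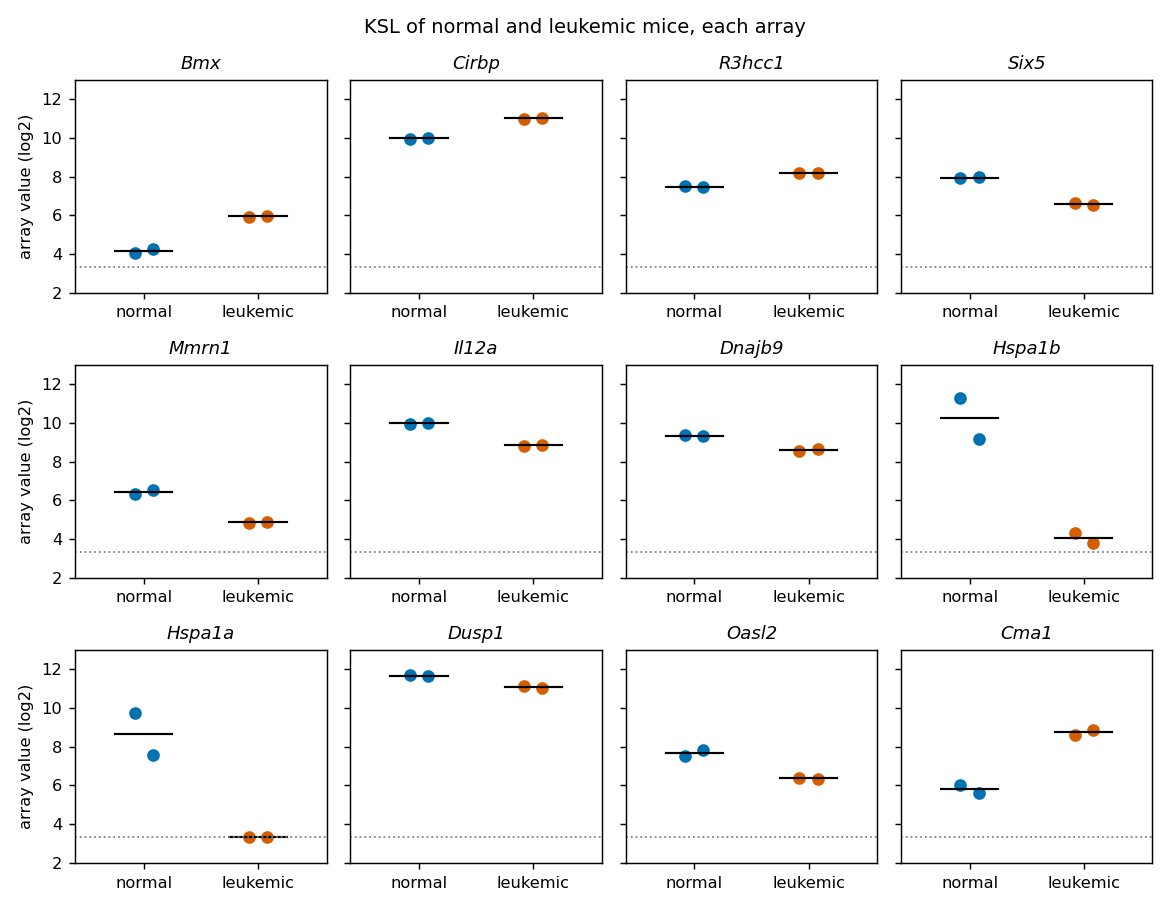
Each point is 1 array's log2 value, bars are group means of 2 arrays, and the dotted line is the floor of 3.32. The normal and leukemic arrays do not overlap for any of the 12 genes, and Hspa1a lies on the floor on both leukemic arrays. Of all genes 20.5% were higher and 24.1% lower without overlap.

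The wider difference leaned downward. Among the 16599 genes not at the floor throughout, the median difference was -0.02 and the middle of the distribution ran from -0.21 to 0.16. Counting without a test, 129 genes (0.709% of all genes) were at least 2-fold higher and 266 (1.46%) at least 2-fold lower in leukemic KSL with both arrays of one group beyond both of the other. At 4-fold these counts were 11 and 22. The lean at 2-fold was smaller after other normalizations, with 166 higher and 226 lower at a common median of the arrays. With quantile normalization the 2-fold counts were 157 and 236. Leaving out normal KSL replicate 1 gave 182 higher and 439 lower, and leaving out leukemic replicate 2 gave 223 higher.

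**Figure D2:**
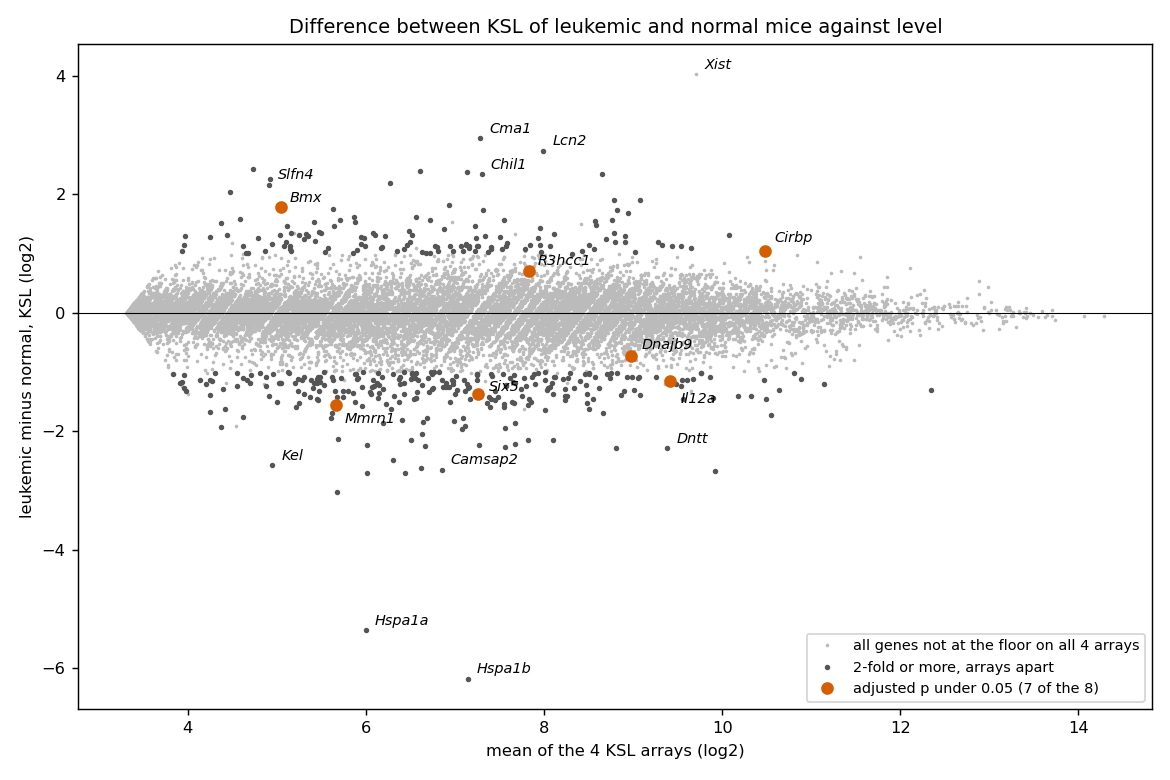
Each point is a gene not at the floor on all 4 KSL arrays, with its mean over these arrays on the x axis and leukemic minus normal on the y axis, both log2. Dark points are the 129 and 266 genes that differed at least 2-fold with arrays apart, orange points are 7 of the 8 genes past the test, Hspa1a and Hspa1b lie lowest, and Xist, whose groups overlap, lies highest.

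The largest differences in either direction were in the inducible Hsp70 genes, chaperones made when proteins unfold. Hspa1b was at 11.29 and 9.18 in normal and at 4.31 and 3.80 in leukemic KSL, a difference of -6.18 ± 0.92 (limma adjusted p = 0.225), and its other probe sets gave -5.08 and -4.81. Hspa1a was at 9.76 and 7.60 in normal KSL and at the floor of 3.32 on both leukemic arrays, so it was at least 41.1-fold lower (limma adjusted p = 0.215). The normal arrays differed from each other by more than 2 log2 units for both genes, yet the lower of them lay far above the leukemic arrays. The 2 genes are nearly identical, and their signals may be shared between probe sets.

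The other heat shock chaperones were mixed. Over the 19 measured members of that list the median difference was 0.10, with 12 higher and 7 lower, beside 42.5% and 48.7% of all genes, and without Hspa1a and Hspa1b it was 0.11, with 12 of 17 higher and 5 lower. None passed the adjusted test, and at an unadjusted p under 0.05 the list held 5 lower and 0 higher, beside 4.45% and 3.5% of all genes. Besides the Hsp70 pair these were Dnajb1, Chordc1 and Hspb1, all lower with arrays apart. On the whole list 6 were lower and 9 higher with arrays apart, beside 24.1% and 20.5% of all genes. Dnajb1, the Hsp40 partner of Hsp70, was at 11.27 and 10.91 against 10.25 and 10.39, a difference of -0.77 ± 0.22. Chordc1, a co-chaperone of Hsp90, was at 10.02 and 9.92 against 9.55 and 9.47, and Hspb1, the small chaperone Hsp27, at 6.10 and 6.63 against 5.69 and 5.77. Fkbp4, a co-chaperone of Hsp90, was higher at 10.91 and 10.72 against 11.24 and 11.35, and Hspa4 was at 10.88 and 10.89 against 11.23 and 11.28, although its mean over all probe sets was different by -0.28. Across the settings tried the median of the list ran from -0.12 to 0.16.

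Immediate-early genes, transcription factors and phosphatases that cells switch on within minutes of a stimulus, were lower in leukemic KSL. Of 26 measured, 24 were lower and 2 higher, the median difference was -0.62, and none passed the adjusted test. At an unadjusted p under 0.05, 11 were lower, beside 4.45% of all genes. Dusp1, which switches MAP kinases off, was at 11.69 and 11.67 in normal and 11.13 and 11.05 in leukemic KSL, a difference of -0.58 ± 0.04 (limma adjusted p = 0.0993).

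The AP-1 subunits Jun, Fosb, Jund and Fos showed the same order of groups. Jun was at 11.99 and 11.77 against 11.01 and 11.16, Fosb at 10.10 and 10.13 against 9.13 and 8.82, Jund at 11.57 and 11.64 against 11.06 and 10.85, and Fos at 11.61 and 11.55 against 11.02 and 10.68. The zinc finger factor Egr1 was at 11.46 and 11.00 against 10.07 and 9.46, and the nuclear receptor Nr4a1 at 9.15 and 8.51 against 7.10 and 7.29. None of these genes overlapped between the groups. Of the 26 on the list 19 were lower with arrays apart, beside 24.1% of all genes. The members with higher means were Fosl1 and Egr2, by 0.16 and 0.21, and without normal replicate 1 the list's median was -0.46.

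The antiproliferative and quiescence genes included several of the same kind. Of 15 measured, 11 were lower and 4 higher with a median of -0.39 (-0.16 with a male term), and none passed. Tob1, an antiproliferative protein of the BTG family, was at 6.06 and 5.97 in normal and 4.66 and 4.32 in leukemic KSL (-1.53 ± 0.12, limma adjusted p = 0.0993), although its other probe set gave 0.06. Btg2 of the same family was at 9.28 and 9.30 against 8.21 and 8.15, and the CDK inhibitor Cdkn1b was at 9.95 and 9.99 against 9.22 and 9.39. Cdkn1a, the p53-regulated inhibitor, was at 7.72 and 7.24 against 7.80 and 7.84.

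Genes of the proliferating cell sat near the background. The 25 mitosis genes had a median difference of -0.07 (8 higher, 17 lower), the 32 DNA replication genes -0.03 (16 and 16) and the 14 G1 cyclins and partners 0.03 (9 and 5). None of these genes passed the adjusted test. Top2a, the topoisomerase of dividing cells, was at 10.14 and 10.16 in normal and at 10.07 and 10.08 in leukemic KSL. The signs of the medians for replication and G1 genes changed under some settings, as they lay within 0.1 of zero.

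Most genes of protein folding in the endoplasmic reticulum were higher in leukemic KSL, while Dnajb9 and Sel1l were lower. Of 22 ER stress genes, 16 were higher and 6 lower, with a median of 0.24, and 6 were higher at an unadjusted p under 0.05 beside 3.5% of all genes. Sdf2l1 was at 9.57 and 9.62 against 10.53 and 10.34, the disulfide isomerase Pdia6 at 9.42 and 9.40 against 10.05 and 10.02, and the secreted factor Manf at 10.19 and 10.20 against 10.76 and 10.76. None of these overlapped between groups, and none passed the adjusted test. On the whole list 13 were higher and 3 lower with arrays apart, beside 20.5% and 24.1% of all genes.

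Creld2 was at 9.36 and 9.48 against 9.98 and 10.01, and the co-chaperone Dnajc3 at 9.35 and 9.54 against 10.01 and 9.95. The chaperone Hspa5 itself was at 11.70 and 11.56 against 11.77 and 11.80, a difference of 0.16 ± 0.22. In the other direction stood Dnajb9, which fell, and Sel1l, an adaptor of ER-associated degradation, at 10.14 and 10.19 against 9.22 and 8.86. The stress factor Ddit3 was at 8.14 and 8.25 against 7.85 and 7.86.

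Lymphoid priming genes were lower in leukemic KSL without exception. All 18 measured members lay lower with arrays apart, beside 24.1% of all genes, the median difference was -1.02, and 1, Il12a, passed the adjusted test. This list, like the others here, was drawn up with earlier results of these data known, so its share is a description and not independent support. Flt3, the receptor of lymphoid-primed progenitors, was at 10.57 and 10 in normal and at 8.78 and 8.88 in leukemic KSL. In a bulk sample, fewer cells of a type and less RNA per cell cannot be told apart.

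The V(D)J recombination genes were among them. Dntt, which adds nucleotides at the junctions, was at 11.07 and 9.98 in normal and 8.13 and 8.35 in leukemic KSL (-2.29 ± 0.42, limma adjusted p = 0.265), and its other probe sets gave -2.53 and -2.38. Rag1, the recombinase, was at 4.72 and 4.33 in normal KSL and at 3.38 and 3.32, at or near the floor, in leukemic KSL. The groups were separate for both genes.

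Surface receptors and regulators of early lymphoid cells followed. Il7r, the interleukin 7 receptor, was at 7.55 and 7.50 against 6.72 and 5.81, and the thymus-homing receptor Ccr9 at 6.50 and 6.17 against 5.42 and 5.34. Cd27 was at 10.45 and 10.36 against 9.18 and 9.45, Ly6d at 7.81 and 8.57 against 6.54 and 6.64, and the transcription factor Bcl11a at 10.03 and 10.22 against 9.16 and 9.22. Across the settings tried the median of the list stayed between -1.11 and -0.87, and without normal replicate 1 it was -0.98.

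The GIMAP family, GTPases of lymphocyte survival encoded as a cluster, had the lowest median of the lists other than the sex-linked genes. All 8 members were lower with arrays apart, beside 24.1% of all genes, with a median of -1.29 and a range from -1.78 to -0.60, and none passed the adjusted test. The family, too, was chosen with earlier results of these data known. Gimap6 was at 9.80 and 9.23 in normal and 7.70 and 7.94 in leukemic KSL, and Gimap8 at 8.10 and 7.86 against 6.52 and 5.90. Summed on the linear scale the family was at 2020 and 1830 in normal and at 765 and 720 in leukemic KSL.

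Genes of antigen presentation by MHC class II were lower, and those of class I were close to the background. All 9 class II genes were lower, 6 with arrays apart beside 24.1% of all genes, and the median was -0.62. Cd74, the invariant chain, was at 8.99 and 9.64 in normal and 7.62 and 7.77 in leukemic KSL (-1.63 ± 0.27, limma adjusted p = 0.228), and H2-Oa of the same list at 7.39 and 7.46 against 6.69 and 6.59. Of the 14 class I genes 9 were higher and 5 lower, with a median of 0.11, and the class I light chain B2m was at 13.21 and 13.24 against 13.04 and 13.14.

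T and NK lineage genes were also lower on balance, with 11 of 16 lower, 3 higher and a median of -0.52, which was -0.25 without normal replicate 2. Cd3e, a chain of the T cell receptor complex, was at 6.77 and 6.86 against 5.55 and 5.39, the adaptor Lat at 7.88 and 7.92 against 6.91 and 7.02, and the transcription factor Gata3 at 6.56 and 6.37 against 5.52 and 5.18. B lineage genes were closer to the background, at a median of -0.21 with 9 of 13 lower (-0.08 without normal replicate 2). The summed linear level was 4800 and 5610 in normal and 5530 and 4600 in leukemic KSL for the T and NK list, in which Ncr1 and Gzma were at the floor throughout, and 1130 and 1590 against 1060 and 1060 for the B list, in which Ms4a1 was. The part of mature lymphocytes in the lymphoid priming result was not tested.

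Interferon-stimulated genes, which cells use against viruses, were mostly lower. Of 25 measured 20 were lower and 5 higher, with a median of -0.42, and 16 were lower with arrays apart, beside 24.1% of all genes. Oasl2 was at 7.54 and 7.83 in normal and 6.40 and 6.34 in leukemic KSL (-1.31 ± 0.10, limma adjusted p = 0.0993), and Usp18, which dampens interferon signalling, at 5.30 and 5.28 against 4.18 and 4.05. The transcription factor Irf7 was at 6.51 and 6.67 against 5.75 and 6.24. The guanylate-binding gene Gbp3 went the other way, at 7.65 and 7.25 against 8.34 and 8.50, as did Ifitm1, a small membrane protein on the stem cell list, at 11.07 and 11.07 against 12.06 and 11.97.

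Other cytokine pathways moved less as groups. The 22 TNF and NF-kB genes had a median of -0.36 (-0.17 with a male term) with 17 lower, among them the chemokine Ccl4 at 9.46 and 9.05 against 8.02 and 7.95. The 27 genes of the IL-6 family and JAK-STAT signalling had a median of -0.02. Within that list Socs3, the feedback inhibitor of IL-6 signalling, was higher, at 6.27 and 6.17 in normal and 7.32 and 7.35 in leukemic KSL (1.12 ± 0.16, limma adjusted p = 0.215), while Stat5b was at 8.55 and 8.47 against 8.04 and 8.24.

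Regulators of stem cells were mostly lower in leukemic KSL. On the list of long-term HSC identity 20 of 25 were lower and 5 higher, the median was -0.51, and none passed. With arrays apart 13 were lower and 2 higher, beside 24.1% and 20.5% of all genes. The higher ones were Ifitm1 and Hoxb5, the latter at 4.67 and 4.76 against 5.28 and 5.38. The summed linear level of the list was 10800 and 11100 in normal and 11200 and 11100 in leukemic KSL. Meis1, a homeobox cofactor of stem cells, was at 9.12 and 8.84 in normal and at 7.93 and 7.73 in leukemic KSL, Prdm16 at 7.33 and 6.94 against 5.51 and 5.01, and Hlf at 8.91 and 8.49 against 7.52 and 7.35. The 3 other probe sets of Prdm16 differed by only -0.61 to -0.29. Gata2 was at 10.13 and 10.10 against 9.11 and 9.19. The Hox genes and their cofactors as a list had a median of -0.04, with Hoxa9 at 9.63 and 9.38 against 9.25 and 9.28.

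Adgrg1, Angpt1 and Mc5r, were lower as well. Adgrg1, an adhesion receptor of stem and progenitor cells, was at 11.34 and 11.25 in normal and 10.03 and 9.95 in leukemic KSL (-1.31 ± 0.09, limma adjusted p = 0.096), and its other probe set gave -1.29. Angpt1, the ligand of the Tie2 receptor, was at 8.93 and 9.00 against 7.51 and 7.49 (-1.47 ± 0.12, limma adjusted p = 0.0993), with -1.46 from its other probe set. Mc5r, a melanocortin receptor, was at 8.23 and 8.02 against 6.65 and 6.55. Both arrays of a group agreed closely for these 3 genes, which were among the 10 smallest p-values of their direction and did not pass.

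Erythroid and megakaryocyte genes were mostly lower too. Of 15 erythroid genes 11 were lower and 4 higher with a median of -0.95. With arrays apart 9 were lower and 1 higher, beside 24.1% and 20.5% of all genes. The higher one was Tfrc, at 9.71 and 9.61 against 10.36 and 9.99. Alas2, Slc4a1 and Hba-a1 had higher means with overlapping arrays. The carbonic anhydrase Car2 was at 11.66 and 11.16 against 9.50 and 9.86, the factor Gata1 at 7.48 and 7.08 against 5.91 and 5.78, and the erythropoietin receptor Epor at 6.82 and 6.10 against 5.37 and 5.31. Normal replicate 1 was the higher of the normal arrays for Car2, Gata1 and Epor, and the median of the list was -0.40 without it and -0.15 with a male term.

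Gfi1b, a repressor needed by both lineages, was at 9.13 and 8.43 in normal and 6.45 and 6.70 in leukemic KSL. Of 16 megakaryocyte and platelet genes 14 were lower and 1 higher with a median of -0.58, which was -0.37 without normal replicate 2. The platelet chemokine Pf4 was at 10.48 and 11.28 against 9.22 and 9.73 and Plek, pleckstrin, at 10.07 and 10.09 against 8.72 and 9.03. Kel, the Kell blood group protein, was at 6.21 and 6.27 against 3.76 and 3.56.

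**Figure D3:**
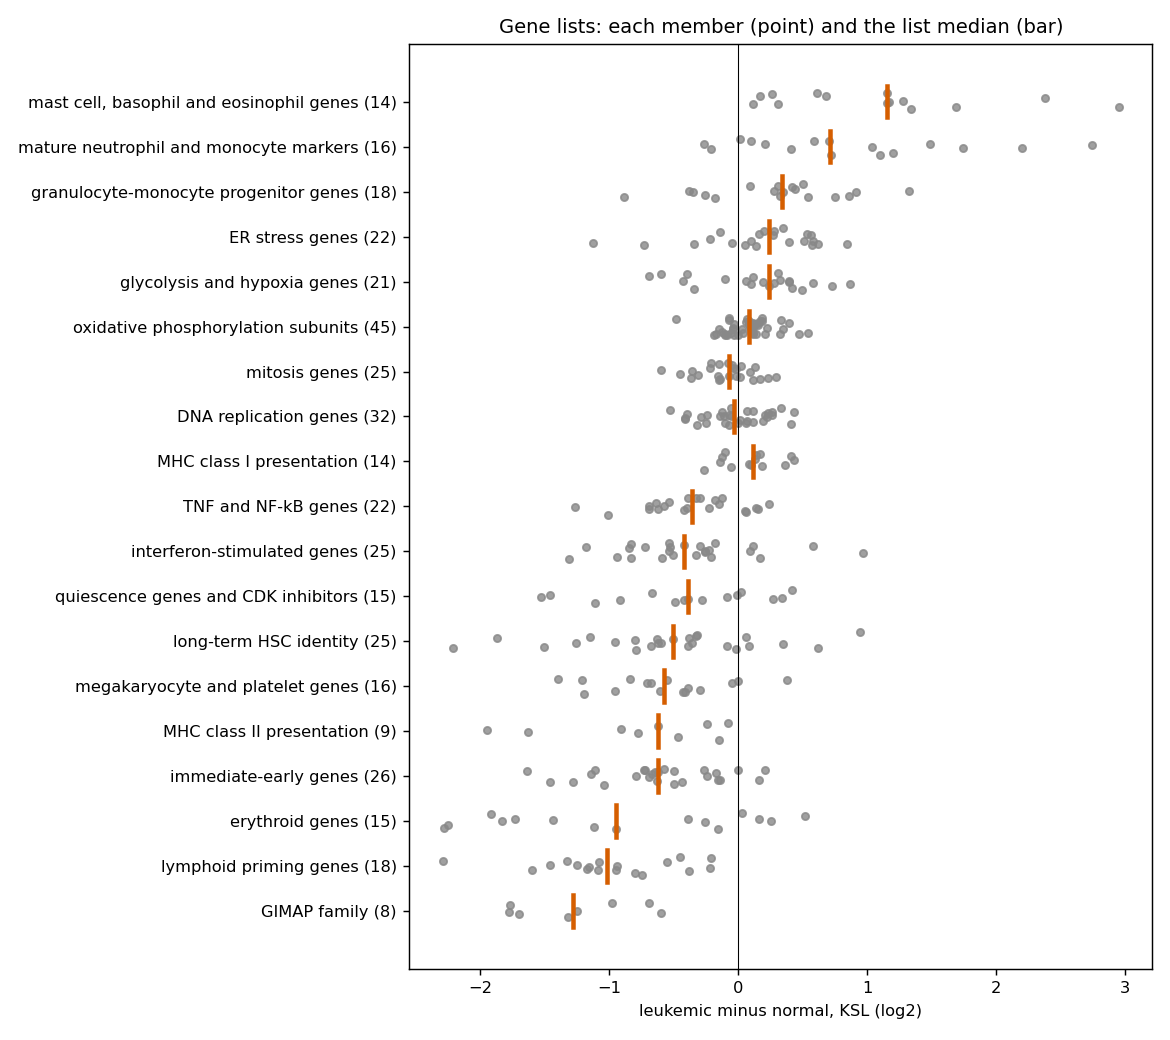
Each point is a measured gene of the list named at the left, with the number of genes in brackets, and the orange bar is the median of leukemic minus normal in KSL (log2). All mast cell genes lie above 0, all lymphoid priming and GIMAP genes below, and mitosis and replication genes around 0.

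Genes of mast cells, basophils and eosinophils were higher in leukemic KSL. All 14 measured were higher, 12 with arrays apart beside 20.5% of all genes, with a median of 1.15, and none passed the adjusted test. These genes, too, were listed with earlier results of these data known. Cma1, mast cell chymase, was at 6.0 and 5.61 in normal and 8.62 and 8.89 in leukemic KSL (2.95 ± 0.23, 7.74-fold, limma adjusted p = 0.0993). It had the largest difference of the 129 genes that were 2-fold higher with arrays apart.

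Other proteases and receptors of these cells followed. The tryptase Tpsb2 was at 4.79 and 4.87 against 6.35 and 5.99, although its other probe set differed by only 0.09. Mcpt4 was at 3.33 and 3.89 against 4.93 and 4.85, and Fcer1a, a chain of the IgE receptor, at 4.98 and 6.92 against 8.18 and 8.47. The eosinophil peroxidase gene Epx was at 7.35 and 8.84 against 9.57 and 9.99. Normal replicate 2 was nearer to the leukemic arrays than normal replicate 1 for Fcer1a and Epx, and without normal replicate 1 the median of the list was 0.71. Lpo, which encodes another peroxidase and is on no list here, was at 6.04 and 6.02 against 7.99 and 7.70 (1.82 ± 0.14, limma adjusted p = 0.0993).

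Granulocyte and monocyte genes were higher with more scatter. Of 18 genes of granulocyte-monocyte progenitors 13 were higher and 5 lower with a median of 0.34 (0.17 without normal replicate 1 and 0.13 with a male term), and of 16 markers of mature neutrophils and monocytes 14 were higher and 2 lower with a median of 0.71. Lcn2, the siderophore-binding lipocalin of neutrophils, was at 6.34 and 6.90 in normal and 9.53 and 9.20 in leukemic KSL (2.74 ± 1.13, limma adjusted p = 0.676). Its wide SE includes the spread of the normal HSC arrays, which were at 7.21 and 3.90. Wfdc21 was at 7.76 and 8.14 against 9.92 and 9.46, and Ccr2, a chemokine receptor of monocytes, at 7.76 and 7.91 against 9.16 and 9.49.

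Camp, Ngp and S100a9, genes of neutrophil granules and cytosol on the mature list, overlapped between the groups. Camp was at 8.88 and 5.64 in normal and 8.37 and 8.24 in leukemic KSL, Ngp at 7.28 and 4.74 against 7.13 and 7.10, and S100a9 at 11.36 and 9.07 against 11.29 and 10.58. For these 3 genes normal replicate 1 lay above both leukemic arrays. Other genes of the mature list were higher with arrays apart at low levels, among them the granule genes Ltf (5.54 and 5.18 against 5.74 and 5.80) and Mmp8 (3.93 and 4.36 against 4.66 and 4.82). In all 7 of the 16 were higher with arrays apart, beside 20.5% of all genes. The median of the mature list was 0.23 without normal replicate 2, 1.09 without leukemic replicate 2 and 1.47 with a male term.

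Single progenitor genes separated the groups. Of 18 on the list 12 were higher and 3 lower with arrays apart, beside 20.5% and 24.1% of all genes. Ms4a3 was at 11.60 and 11.87 against 12.59 and 12.37, the protease Prtn3 at 12.44 and 12.79 against 13.25 and 13.06, and haptoglobin, Hp, at 9.37 and 9.47 against 10.78 and 10.70. The cytokine receptor chain Csf2rb was at 8.92 and 8.68 against 9.65 and 9.77. Csf2rb2, which is on the list of cytokine receptors and not on this one, was at 6.66 and 6.33 against 7.42 and 7.84. Irf8, the factor of monocyte and dendritic cell fates, ran against the list at 9.81 and 9.94 in normal and 8.86 and 9.11 in leukemic KSL. So did Csf1r, at 10.53 and 10.71 against 10.25 and 10.29, and Csf3r, at 8.93 and 9.19 against 8.64 and 8.72. Lyz2 and Ly86 had lower means with overlapping arrays.

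Further genes with large differences belonged to no list. The chitinase-like Chil1 was at 5.73 and 6.54 against 8.71 and 8.22 (2.34 ± 0.32, limma adjusted p = 0.215) and Slfn4 of the Schlafen family at 3.72 and 3.95 against 6.21 and 5.78. The purine enzyme Gda was at 7.59 and 8.07 against 9.94 and 9.53, with 1.81 and 1.87 from its other probe sets. In the other direction Ces2g, a carboxylesterase, was at 9.13 and 8.26 against 6.20 and 6.66. Camsap2, a microtubule-binding protein, was at 6.78 and 9.57 against 5.53 and 5.53, but its 3 other probe sets differed by only -0.48 to -0.04.

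Macrophage markers were low and uneven. Of 13 measured 9 were lower and 4 higher, none at the floor throughout, and their summed linear level was 969 and 1570 in normal and 893 and 923 in leukemic KSL. The complement gene C1qb was at 6.24 and 8.49 against 5.18 and 4.15 and Mrc1 at 3.92 and 6.27 against 4.23 and 4.34, so that normal replicate 2 stood above the other arrays. The median of the list was -0.81, and it was -0.19 without normal replicate 2 and -1.28 without normal replicate 1. The heme oxygenase gene Hmox1, also an antioxidant gene, was at 7.24 and 7.40 against 5.30 and 5.70. The part of these cells in other results was not tested.

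Metabolic genes were slightly higher. Of 21 glycolysis and hypoxia genes 15 were higher and 6 lower with a median of 0.24, and at an unadjusted p under 0.05 there were 7 higher and 2 lower, beside 3.5% and 4.45% of all genes. With the mean of all probe sets the median was 0.14. The lactate exporter Slc16a3 was at 6.52 and 6.33 in normal and 7.34 and 7.26 in leukemic KSL (0.87 ± 0.08, limma adjusted p = 0.112), and Ldha, lactate dehydrogenase, at 11.70 and 11.58 against 11.89 and 11.99. The glucose transporter Slc2a3 was lower, at 9.83 and 9.75 against 9.15 and 9.06. The 45 oxidative phosphorylation subunits had a median of 0.08, with 30 higher and 15 lower.

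Enzymes of DNA methylation and the Polycomb group had a median of -0.38, with 14 of 21 lower. The histone methyltransferase Ezh2 was at 9.95 and 9.90 against 9.60 and 9.39, and the DNA methyltransferase Dnmt3a at 9.83 and 9.96 against 9.51 and 9.48. Ribosomal proteins (median -0.03 over 32 genes), cholesterol synthesis genes (0.09 over 16) and antioxidant genes (-0.01 over 16) lay near the background. Within the last list glutathione reductase, Gsr, was higher, at 10.52 and 10.75 against 11.47 and 11.52.

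Signalling lists with medians closer to zero still held single genes with tight arrays. Of 25 genes of TGF-beta and BMP signalling 17 were lower and 8 higher with a median of -0.13, which was -0.03 without leukemic replicate 1, and 5 were lower at an unadjusted p under 0.05, beside 4.45% of all genes. The BMP receptor Bmpr2 was at 8.61 and 8.58 in normal and 8.35 and 8.26 in leukemic KSL. The shared mediator Smad4 was at 9.66 and 9.77 against 9.22 and 9.05, with only -0.16 and -0.05 from its 2 other probe sets. The 19 genes of Notch and Wnt signalling had a median of -0.04. The Notch regulator Dtx4 was at 8.59 and 8.95 against 9.61 and 9.69, with 0.23 from its other probe set. None of these genes passed the adjusted test.

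The 21 homing and adhesion genes had a median of -0.11, with 13 lower and 8 higher. The adhesion molecule Alcam was at 8.31 and 8.22 in normal and 8.69 and 8.84 in leukemic KSL, and the integrin chain Itga4, which anchors progenitors in the marrow, at 11.01 and 11.30 against 10.64 and 10.31. The 23 Myc network and nucleolar genes had a median of 0.06. Among them Mycn was lower, at 7.95 and 7.99 against 7.30 and 7.36, while its 2 other probe sets gave -1.36 and 0.19. Nucleophosmin, Npm1, was higher, at 12.59 and 12.51 against 12.72 and 12.76. The p53 target genes (-0.12 over 19) and the BCL2 family (-0.07 over 14) lay near the background, with the pro-apoptotic Pmaip1, a member of both, at 6.23 and 6.99 against 7.84 and 7.90.

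Of 9 dendritic cell markers 6 were lower and 3 higher with a median of -0.39. The chemokine receptor Ccr7 was at 5.81 and 4.37 in normal and at 3.32 and 3.49, at or near the floor, in leukemic KSL. The transcription factor Tcf4 was at 10.05 and 10 against 9.29 and 9.49, with -0.50 to -0.09 from its 5 other probe sets. The 15 stromal and endothelial markers had a median of -0.04 with 7 higher and 8 lower. Their summed linear level was between 1060 and 1450 on the 4 KSL arrays.

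The last comparison asked whether the KSL difference was the same as that between HSC of leukemic and normal mice. Of the 129 genes at least 2-fold higher with arrays apart in KSL, 93 (72.1%) were also higher in the HSC means. Of the 266 lower ones 178 (66.9%) were lower there. Of all genes 46.3% were higher in the HSC means. The remaining 53.7% hold the lower genes together with the 1291 genes at the floor on all 8 arrays, which had no difference. The difference of the differences passed limma's test for 1 gene (0.0055%), Slc16a12, a carrier (limma adjusted p = 0.0245 for the interaction). It was at the floor on all 4 KSL arrays and both leukemic HSC arrays, so its HSC difference of -1.15 gives only the least size of the fall. By limma no gene passed the interaction test with a male term (1744 at an unadjusted p under 0.05) or with a replicate block (1662). None of the 8 genes that passed in KSL passed this test of a difference between the cell types, and 1653 genes (9.09%) had an unadjusted interaction p under 0.05. Leaving out 1 HSC array at a time changed how many genes passed the interaction test at an adjusted p under 0.05.

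Some groups nevertheless had quite different sizes in the 2 cell types, given as values. The lymphoid priming genes had a median of -1.02 in KSL and -0.16 in HSC, the GIMAP family -1.29 and -0.17, the immediate-early genes -0.62 and 0.08, and the mast cell genes 1.15 and 0.37. Progenitor genes of granulocytes and monocytes had 0.34 and 1.33, and megakaryocyte genes -0.58 and 0.55. Irf8 differed by -0.89 in KSL and 1.58 in HSC, Il1r1, the interleukin 1 receptor, by -0.34 and 1.95, and R3hcc1 by 0.71 and -0.38, with an adjusted p of 0.0578 for the R3hcc1 interaction by limma. The other probe set of Il1r1 gave 0.00 in KSL. Socs3 was higher in both, by 1.12 and 1.70, and Hspa1b lower in both, by -6.18 and -4.33.

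**Figure D4:**
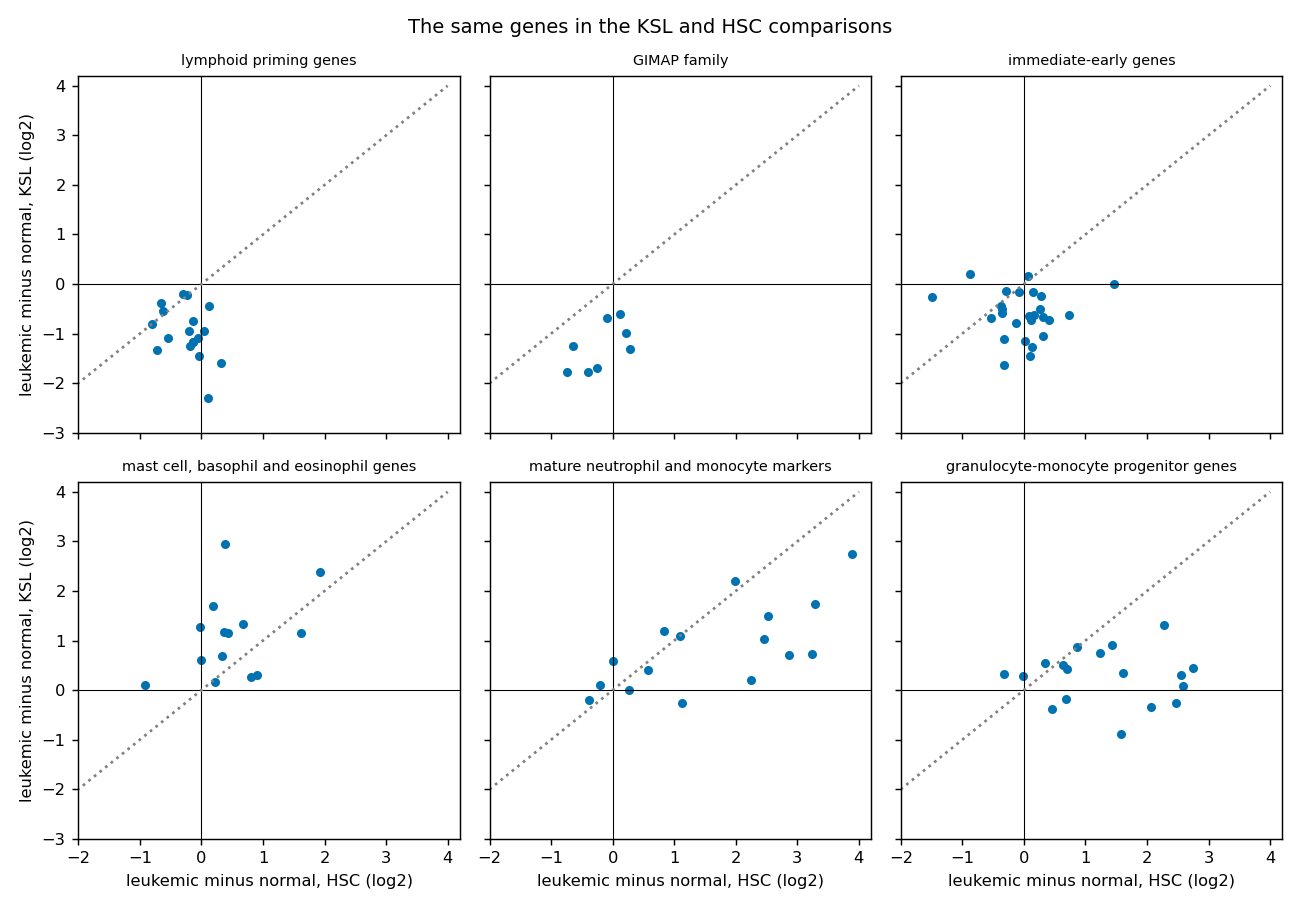
Each point is a gene of the list named above the panel, with the HSC difference on the x axis and the KSL difference on the y axis (leukemic minus normal, log2), and the dotted line marks equal differences. Lymphoid priming, GIMAP and most immediate-early genes lie below the line, most mast cell genes above it, and most progenitor genes of granulocytes and monocytes to its right.

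The RNA quality probes compare the 3' and 5' ends of control transcripts. The 3' minus 5' difference of the Gapdh control probes was 0.89 and 0.74 in normal and 0.73 and 0.75 in leukemic KSL, and that of Actb was -0.48 and -0.48 against -0.53 and -0.53. That of Tfrc was -1.28 and -1.58 in normal and -1.65 and -1.68 in leukemic KSL, lower in both leukemic arrays. The part of RNA quality in the results was not tested.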

How the data were processed

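The deposited values are log2 expression values of 45101 probe sets on Affymetrix Mouse 430 2.0 arrays, made by the authors with RMA per the submitters' processing notes and floored at 10 on the linear scale (3.32 log2). Array number limits the precision. The labels describe biotinylated cRNA from total RNA and the design text a pre-amplification, so the labelling used is unsettled. The titles of the leukemic KSL arrays also contain the wording for a normal mouse, and their disease state label was used.

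Of the probe sets 34945 had 1 gene symbol, 932 several, 9160 none and 64 were controls. Each of the 18193 genes was read from its brightest probe set (mean of 8 arrays). Differences were tested with limma 3.58.1 (R 4.3.3) on 8 arrays and 4 group means, two-sided, with Benjamini-Hochberg adjustment. The script was tested on simulated data. Lists and members were chosen with earlier results of these data known. Named genes passed, had the 10 smallest p-values or 12 largest differences with arrays apart in a direction, or the 6 smallest p-values of a list. Further list members were named after their values were seen. No columns of other samples were present. Equal replicate numbers were not taken as pairs: deviations of same-numbered arrays correlated between -0.0351 (KSL normal and leukemic) and 0.0873 (KSL and HSC normal, whose replicates 1 were both male).

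Alternatives were the KSL arrays alone, other normalizations and filters, array weights, a trended prior, the mean of all probe sets, a male term, a replicate block and leaving out each array.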

Additional observations from a re-analysis of the deposited data

Results flagged for a closer look

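Slc16a12, a carrier of the monocarboxylate transporter family, was the 1 gene whose KSL and HSC differences were not the same by limma's interaction test, with a KSL difference minus HSC difference of 1.15 (adjusted p = 0.0245). It was at the floor of 3.32 on all 4 KSL arrays and both leukemic HSC arrays, and at 4.48 and 4.47 in normal HSC. The KSL difference was therefore 0.00, and the HSC difference gives only the least size of the fall. Arrays at the floor show no spread, which makes the SE and the p-value small. Groups of 2 arrays are too small for a check for outlying samples.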

How the results depend on the processing

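Over 129 genes named in the text, 2169 of 2299 recomputed differences kept their direction and their side of the threshold, 99 lost and 22 gained a call, and 9 turned. The main counts were 3 higher, 5 lower and 1 with an interaction. By limma the 4 KSL arrays alone called 0 and 0, the common median 0 higher, 1 lower and 0 interactions, quantile normalization 2 higher, 4 lower and 2 interactions, array weights 49 and 76, the trended robust prior 5 interactions, the set without genes at the floor 0, 1 and 2, the set without the lowest 40% of genes 1, 1 and 2, the mean of all probe sets 7 interactions, and the male term 0, 0 and 0. The replicate block, a fit that treats equal replicate numbers as paired, called 0 higher, 0 lower and 0 interactions (1436 genes at an unadjusted p under 0.05). With 1 array left out the calls ranged from 0 to 1 higher, 0 to 6 lower and 0 to 68 interactions. The 129 genes 2-fold higher became 79 without the lowest 40% of genes and 108 to 223 with 1 array left out. The 266 genes 2-fold lower became 173 with the mean of all probe sets and 273 to 439 with 1 array left out.

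The differences that turned were Mpo (-0.34) and Hoxa9 (0.03) with a male term, Hspa4 (-0.28) and Fosl1 (-0.06) with the mean of all probe sets, and, with 1 array left out, Syvn1 (-0.41 to 0.13), Camp (-0.58 to 2.66), Ngp (-0.17 to 2.37), S100a9 (-0.42 to 1.86) and Mrc1 (-1.99 to 0.36), with both ends of each range set by leaving out a normal KSL array. The cause was not tested. Of 43 list medians 12 changed sign under some setting, all of them within 0.1 of zero except that of the macrophage markers, which ran from -1.28 to 0.09. Without normal KSL replicate 1 the median of the MAP kinase feedback inhibitors moved from -0.17 to -0.35.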
